A study of Mus musculus with 2 samples.

Results

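The amount of an mRNA in an activated T cell is set by its decay as well as by its transcription, and this account follows 10 genes whose proteins steer that decay. They were Zfp36, Zfp36l1, Zfp36l2, Zc3h12a, Rc3h1, Rc3h2, Elavl1, Cnot1, Cnot6l and Btg1, taken by symbol from the 23282 rows of the gene table. All 10 were found, each as 1 row. To examine the early stage of induced Treg (iTreg) differentiation, naïve CD4+ T cells from the spleens of female wild-type (WT) C57BL/6 mice aged 7 to 10 weeks were activated with anti-CD3ε and anti-CD28. They were kept for 1 day with TGF-β1, IL-2 and antibodies against IFN-γ and IL-4, a mixture that drives Foxp3 expression. One culture received DMSO, the vehicle (control), and the other received 10 μM Tubastatin A (TSA, an inhibitor of the deacetylase HDAC6, not to be confused with trichostatin A). Each condition gave 1 library, so no difference below has a replicate check, and an effect of TSA cannot be told apart from a difference between the cultures or the library preparations. In such bulk RNA, fewer cells of a type and less RNA per cell cannot be told apart either.

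In resting and recently activated T cells, the short-lived mRNAs of cytokines and costimulatory receptors carry signals in their 3′ untranslated regions (UTRs). ZFP36, ZFP36L1 and ZFP36L2 are zinc finger proteins that bind AU-rich elements there and recruit the CCR4-NOT complex, which shortens the poly(A) tail. Regnase-1 (Zc3h12a) is an endonuclease and the Roquins (Rc3h1 and Rc3h2) are RING and zinc finger proteins, and both recognise stem-loops in overlapping sets of immune transcripts. HuR (Elavl1) binds AU-rich elements as well but is known mainly for protecting its targets. CNOT1 is the scaffold of CCR4-NOT, CNOT6L is one of its catalytic subunits, and BTG1 is a quiescence factor that links the complex to poly(A)-binding protein.

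The genes for these regulators carry, in part, the same element that the ZFP36 proteins bind. The heptamer TATTTAT (searched on the transcript strand only, overlapping matches counted) was present in the annotated 3′ UTR of 7 of the 10 genes. Among all coding genes with a 3′ UTR, 27.4% held it. Among the 11437 genes whose UTR length fell in the range of the 10 genes (774 to 7181 bases), 41.2% did. Lengths within that range were not matched, and longer UTRs hold more heptamers. The Elavl1 UTR held 8 heptamers, those of Zfp36, Zfp36l1, Zfp36l2, Rc3h2 and Cnot6l held 3 each, and that of Rc3h1 held 2. None was found in the UTRs of Zc3h12a, Cnot1 or Btg1. The sites below are printed because they hold the letters that ZFP36 proteins are known to bind, in the mRNAs of this group and in their textbook cytokine targets Tnf and Il2. Each is the 30-base window with the most heptamers in the UTR of the longest coding transcript, written 5′ to 3′ on the transcript strand as in GENCODE M21 (GRCm38), with the heptamers in capitals.
Zfp36, chr7:28376958-28376987 (minus strand): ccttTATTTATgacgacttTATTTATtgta
Zfp36l1, chr12:80108421-80108450 (minus strand): ttatcaaaacgTATTTATtgccaaactatg
Zfp36l2, chr17:84184913-84184942 (minus strand): actatttaactTATTTATtatcttgtgaaa
Rc3h1, chr1:160970043-160970072 (plus strand): actttactcatTATTTATtgagatgaggag
Rc3h2, chr2:37374755-37374784 (minus strand): tccagctgcttTATTTATctttttcattgg
Elavl1, chr8:4285776-4285805 (minus strand): TATTTATTTATTTATTTATtttTATTTATt
Cnot6l, chr5:96071160-96071189 (minus strand): agggaagagatTATTTATttttgtttcctg
Tnf, chr17:35199677-35199706 (minus strand): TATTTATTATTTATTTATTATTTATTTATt
Il2, chr3:37120904-37120933 (minus strand): aaacTATTTATctgaaatTATTTATtatat
The Elavl1 and Tnf windows held 5 heptamers each, some of them overlapping, and the Zfp36 and Il2 windows held 2 each. The other windows held 1. A match to these letters is a description of the sequence and not a mapped binding site.

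The libraries were made from transcript 3′ ends with the QuantSeq kit, so a transcript gives about 1 read whatever its length, and levels of different genes are compared below as normalized counts without division by length. The reads recovered from the deposited values summed to 10846023 (control) and 10432287 (TSA), and 3 reads, the smallest amount taken as detectable, corresponded to 0.277 and 0.288 CPM, counts scaled to a common library total. Both libraries carried the markers of CD4+ T cells. All 8 T cell markers examined were present, from 602 reads (Cd3g, control) to 4531 reads (Lck, control), and Foxp3 had 1633 and 965 reads. The 4 B cell markers summed to 12 (control) and 15 (TSA) reads, the 6 myeloid markers to 32 and 25, the 3 erythroid markers to 32 and 45, and the 2 NK cell markers to 0 and 1. The CD8 genes Cd8a and Cd8b1 together had 80 and 87 reads.

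All 10 RNA-decay regulators were well expressed, with mean normalized counts from 242 (Zfp36) to 3683 (Zfp36l1). None of them differed by 2-fold between control and TSA-treated cells, and the 95% intervals of all 10 fold changes together spanned 0.725 to 1.23. Over the whole data set, 14.7% of the 12164 genes tested (at least 10 reads in 1 library) passed 2-fold, 11.5% higher and 3.15% lower in the TSA library. Genes with few reads pass this threshold more often, and the closer background is the 6190 genes with a mean normalized count of 200 to 4000, the range that holds the 10 genes. Of these, 1.76% passed 2-fold, so 0 of 10 is close to that background.

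**Figure D1:**
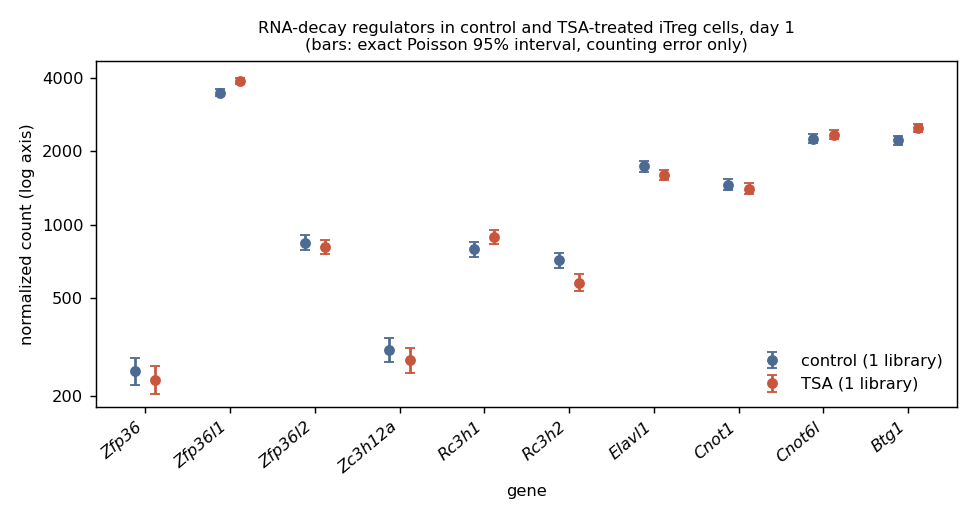
Normalized count (log axis) of each RNA-decay regulator in the control library (blue) and the TSA library (red), 1 library each. Bars are exact Poisson 95% intervals, which cover counting error only. Zfp36l1 is highest in both libraries and Zfp36 lowest.

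**Figure D2:**
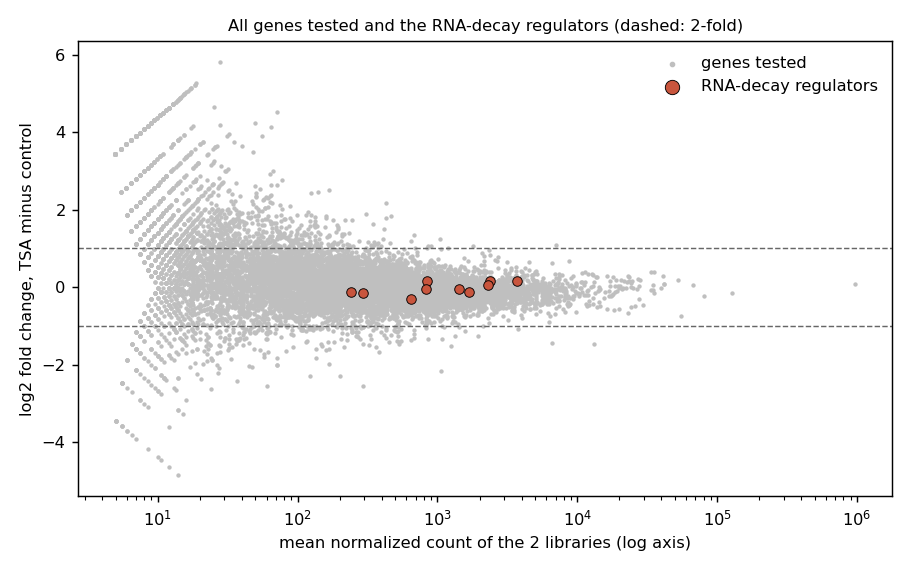
Log2 fold change (TSA minus control) against the mean normalized count of both libraries (log axis) for the 12164 genes tested (grey) and the 10 RNA-decay regulators (red). Dashed lines mark 2-fold. The regulators lie between -0.30 and 0.17, while the grey cloud widens towards low counts.

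The 3 ZFP36 genes were expressed at very different levels. Zfp36l1 (chr12:80107754-80113013, minus strand, 2 exons) stood at 3482 normalized counts with DMSO and 3885 with TSA, and this TSA/control ratio of 1.12 had a 95% interval of 1.07 to 1.17. The intervals given are exact Clopper-Pearson intervals on the reads, and they compare these libraries and cover counting error only. Zfp36l2 (chr17:84183931-84187947, minus strand, 2 exons) stood at 847 and 812, a ratio of 0.959 (0.869 to 1.06). Zfp36, the founding member, which encodes tristetraprolin and is an immediate-early gene (chr7:28376784-28380253, minus strand, 2 exons), stood at 252 and 233, a ratio of 0.923 (0.769 to 1.11). Thus Zfp36l1 was slightly higher in the TSA library by more than counting error, and the intervals of its relatives included no change. The share of the family's reads does not depend on how the libraries are scaled. Zfp36l1 held 76.0% of the family's reads with DMSO (74.7 to 77.2) and 78.8% with TSA (77.6 to 79.9). Zfp36l2 went from 18.5% to 16.5%, and Zfp36 from 5.51% to 4.72%. The ratio of Zfp36l1 to its relatives combined was 1.17 times as high in the TSA library (1.07 to 1.29). Within its last 500 bases Zfp36l1 is overlapped on the other strand by the noncoding gene Gm26669, and a pseudogene, Zfp36l1-ps, is annotated, so reads from these could be counted with it. Whether counting used the strand is not given in the sources used here, and none of the other 9 genes had such an overlap.

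Regnase-1 and the Roquins were expressed at intermediate and low levels. Zc3h12a (chr4:125118423-125127840, minus strand, 6 exons) stood at 307 normalized counts with DMSO and 279 with TSA, and the interval of its ratio of 0.906 (0.768 to 1.07) included no change. The Roquin paralogs differed in opposite directions. Rc3h1, which encodes Roquin-1 (chr1:160906418-160974978, plus strand, 20 exons), stood at 796 and 890 normalized counts, a ratio of 1.12 (1.01 to 1.23). Rc3h2, which encodes Roquin-2 (chr2:37370069-37422903, minus strand, 22 exons), stood at 716 and 580, a ratio of 0.811 (0.725 to 0.906), the largest difference of the 10 genes. Roquin-1 and Roquin-2 act redundantly on targets such as Icos and Tnfrsf4. Summed over both genes, Roquin reads were 1504 with DMSO and 1477 with TSA, while the composition of the sum differed. Rc3h1 made up 52.7% of Roquin reads with DMSO (50.1 to 55.2) and 60.5% with TSA (58.0 to 63.0). The ratio of Rc3h1 to Rc3h2 was 1.11 and 1.53, 1.38 times as high with TSA (1.19 to 1.60), and library scaling does not enter this value. Among genes at like levels, 34.5% had a larger absolute log2 fold change than Rc3h2, and 61.3% had a larger one than Rc3h1.

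The share of Regnase-1 against its relative also differed. Zc3h12d (Regnase-4), taken from the list of partners, stood at 421 normalized counts with DMSO and 569 with TSA, a ratio of 1.35 (1.19 to 1.54). Zc3h12a accounted for 42.2% of the combined reads of both genes with DMSO (38.6 to 45.9) and for 32.9% with TSA (29.7 to 36.1). The ratio of Zc3h12a to Zc3h12d in the TSA library was 0.670 times that in the control library (0.543 to 0.828). Zc3h12b and Zc3h12c were near the limit of detection, with 3 (control) and 14 (TSA) reads for the former and 7 and 3 for the latter.

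Elavl1 (chr8:4285382-4325413, minus strand, 6 exons), the gene for the stabilising protein HuR, stood at 1737 normalized counts with DMSO and 1604 with TSA. Its ratio was 0.923, and the interval of 0.862 to 0.989 lay just below no change. After scaling to total reads the ratio was 0.969 and its interval of 0.905 to 1.04 included no change, so this difference rests on the scaling. Its neuronal relatives Elavl2, Elavl3 and Elavl4 had at most 5 reads in either library.

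Cnot1 and Cnot6l, which encode subunits of the CCR4-NOT complex, had, as deposited, the smallest differences of the 10 genes. Other subunits of the complex are covered by the deadenylation list below. Cnot1, the scaffold (chr8:95719451-95807464, minus strand, 49 exons), stood at 1463 normalized counts with DMSO and 1410.5 with TSA, a ratio of 0.964 (0.895 to 1.04). Cnot6l, the catalytic subunit (chr5:96070333-96164171, minus strand, 12 exons), stood at 2259 and 2342, a ratio of 1.04 (0.978 to 1.10). Both intervals included no change, although that of Cnot6l was 1.03 to 1.15 after scaling to total reads, and 86.8% and 87.0% of genes at like levels had larger absolute changes. Cnot6, the other CCR4-type nuclease, was expressed at about the same level as Cnot6l, and Cnot6l held 46.2% of the reads of the pair with DMSO (44.8 to 47.6) and 45.7% with TSA (44.4 to 47.1). Btg1 (chr10:96617006-96622809, plus strand, 2 exons) stood at 2220 and 2496 normalized counts, a ratio of 1.12 (1.06 to 1.19), higher in the TSA library by more than counting error. It outweighed its relative Btg2, with 86.0% of their reads with DMSO (84.6 to 87.3) and 85.0% with TSA (83.7 to 86.3), and these intervals overlapped.

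**Figure D3:**
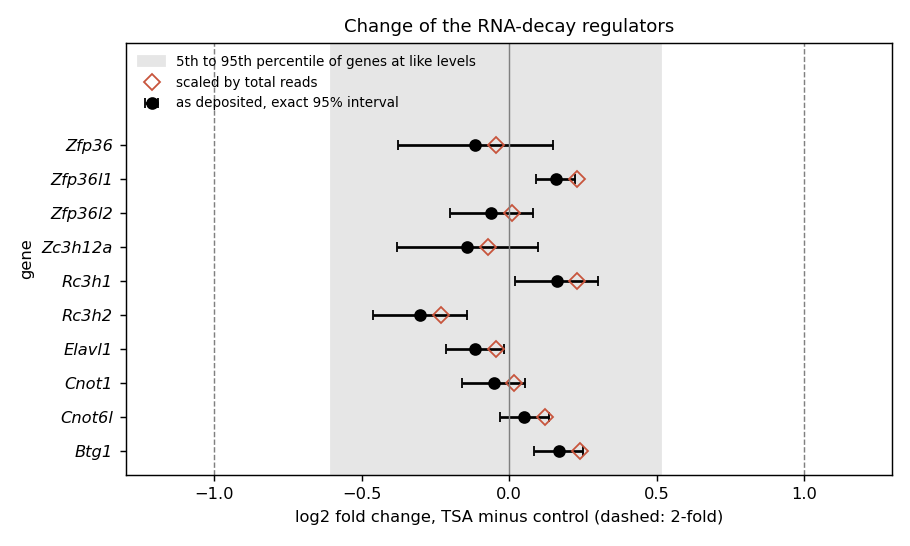
Log2 fold change (TSA minus control) of each RNA-decay regulator as deposited (black, with its exact 95% interval) and after scaling to total reads (open red diamonds). The grey band is the 5th to 95th percentile of genes at like levels (-0.60 to 0.52) and the dashed lines mark 2-fold. All 10 points lie inside the band, and Rc3h2 is the lowest.

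**Figure D4:**
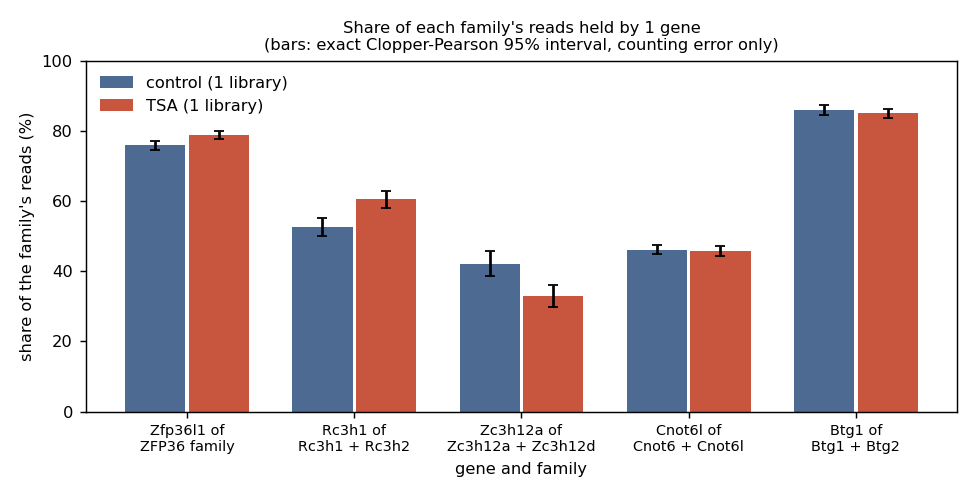
Share of the reads of a gene family held by 1 of its genes (percent, from 0) in the control library (blue) and the TSA library (red), with exact Clopper-Pearson 95% intervals. The Zfp36l1 and Rc3h1 shares are higher and the Zc3h12a share lower in the TSA library, with intervals that do not overlap, while the intervals of Cnot6l and Btg1 overlap. The families were chosen after values were seen, and how often other gene pairs differ this way was not computed.

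In order of level, Zfp36l1 was followed in both libraries by Cnot6l and Btg1, then Elavl1, Cnot1, the group of Zfp36l2, Rc3h1 and Rc3h2, then Zc3h12a and Zfp36. Within this order the intervals of Cnot6l and Btg1 overlapped in both libraries, as did those of Zfp36l2 and Rc3h1 and those of Zc3h12a and Zfp36. Rc3h1 and Rc3h2 overlapped in the control library (741 to 853 against 664 to 770) and were apart in the TSA library (832 to 950 against 534 to 629).

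Considered as a list, 4 of the 10 genes had a ratio above 1 and 6 a ratio below 1, where 59.2% of genes at like levels had one below 1, and the median of their log2 fold changes was -0.057, beside 0.015 for all genes tested and -0.074 for genes at like levels. The median absolute log2 fold change was 0.128 for the list and 0.216 for genes at like levels. For 5 of the 10 genes the counting interval excluded no change, 3 higher (Zfp36l1, Rc3h1 and Btg1) and 2 lower (Rc3h2 and Elavl1). In the background, 61.7% of genes at like levels had such an interval, and 39.4% had one below 1. The direction of Zfp36l2 and Cnot1 depended on the scaling: their log2 fold changes were -0.06 and -0.05 as deposited and 0.0090 and 0.017 after scaling to total reads. The other 8 genes kept their sign under all 4 other scalings tried. With total reads or the upper quartile as the scale, 4 intervals lay above 1 and 1 below, since Cnot6l joined the former and Elavl1 left the latter.

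The wider decay machinery was examined with 6 lists, which together held 100 genes tested. Of these, 3 were higher and 1 was lower by more than 2-fold, so 4 of 100 passed, beside 14.7% of all genes tested. Of the 80 with a mean normalized count of 200 to 4000, only Igf2bp3 passed, beside 1.76% of all genes in that range. The median log2 fold change over the 100 genes was -0.08, beside -0.074 for all genes with a mean normalized count of 200 to 4000. At any size 70 were lower, beside 59.2% of genes in that range. After scaling to total reads 54 were lower, but no background share was computed for that scaling, which raises all genes by 0.070. All 3 higher genes encode RNA-binding proteins or a nuclease at modest or low levels. Igf2bp3, an oncofetal mRNA-binding protein, was counted 195 times with DMSO and 442 times with TSA, a ratio of 2.24 (1.89 to 2.67). Its relative Igf2bp2 had 3 and 47 reads, a ratio of 11.9 on the scale that adds 1 to each value, with an interval of 4.99 to 77.9. Zc3h12b, the other higher gene, had 3 and 14 reads, with a ratio of 3.71 and an interval of 1.29 to 25.1. Angel1, a member of the CCR4 nuclease family, was the lower gene, with 38 and 10 reads and a ratio of 0.279 (0.116 to 0.533).

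The deadenylation list (CCR4-NOT subunits, TOB and BTG adaptors, and the PAN2-PAN3 and PARN deadenylases) had 22 rows tested, because Btg3 occurs in 2 rows of the table. Its median log2 fold change was -0.09, with 7 rows higher and 15 lower, or 10 and 12 after scaling to total reads. As deposited, 9 of the 22 rows had an interval below 1, 5 had one above 1 and 8 included no change. Of all genes with a mean normalized count of 200 to 4000, 59.2% were lower and 39.4% had an interval below 1. Where normalized counts averaged at least 50, Tob1, an antiproliferative adaptor of CCR4-NOT, had the highest ratio, with 41 and 79 reads and a value of 1.89 (1.29 to 2.85). The lowest was Pde12, a mitochondrial deadenylase, with 514 and 338 reads and a ratio of 0.652 (0.566 to 0.748). Among 15 other AU-rich and 3′ UTR binding proteins tested, 6 were higher and 9 lower, which turned to 9 and 6 after scaling to total reads, and the lowest was Hnrnpab, with a ratio of 0.738 (0.720 to 0.757). Of 8 tested partners of Regnase and Roquin, 5 were higher and 3 lower, or 7 and 1 after scaling to total reads. Zc3h12d was the highest of them with at least 50 normalized counts, and the lowest was Upf1, the helicase that acts with Regnase-1, with a ratio of 0.775 (0.715 to 0.840).

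No gene of the decapping, exosome or nonsense-mediated decay lists passed 2-fold. In the decapping list 7 of 20 genes were higher and 13 lower, between Lsm4, an Sm-like ring subunit, at 0.702 (0.660 to 0.747) and Eif4enif1, a translational repressor of P-bodies, at 1.28 (1.17 to 1.39). In the exosome list 16 of 20 genes were lower, and the median was -0.13 on the log2 scale. Its extremes were Dis3, a catalytic subunit of the exosome, at a ratio of 0.607 (0.557 to 0.660), and Ttc37, a subunit of the SKI complex, at 1.23 (0.888 to 1.71). In the nonsense-mediated decay list 14 of 15 genes were lower, the median was -0.14 on the log2 scale, and 10 of the 15 had an interval below 1. Genes with a mean normalized count of 200 to 4000 also leaned this way, with 59.2% lower, 39.4% with an interval below 1 and a median of -0.074. Upf3a was the lowest, with 259 and 144 reads and a ratio of 0.552 (0.446 to 0.678), and Smg1, the kinase that phosphorylates UPF1, was the highest at 1.06 (0.972 to 1.17). With total-read scaling, 13 of 20 exosome genes and 11 of 15 nonsense-mediated decay genes were lower, and no background share was computed for that scaling.

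**Figure D5:**
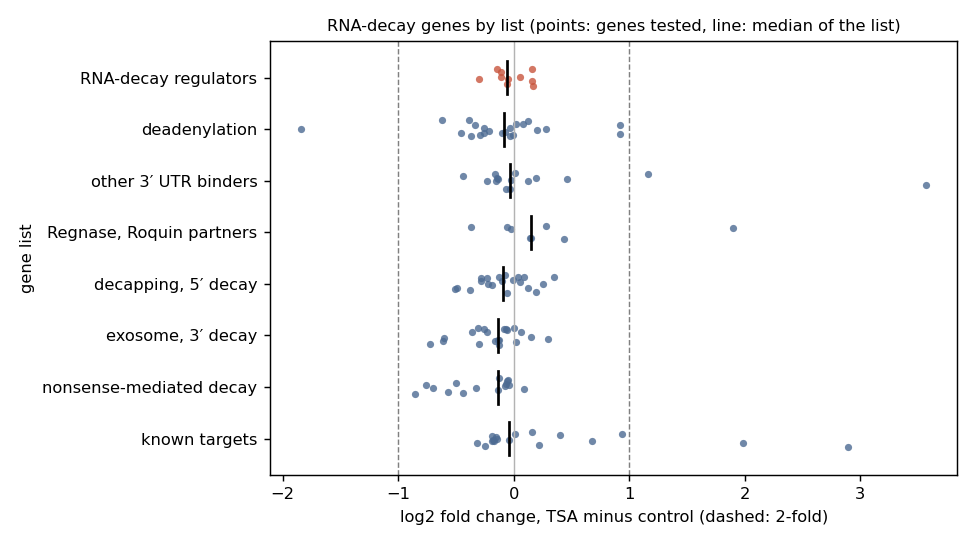
Log2 fold change (TSA minus control) of the RNA-decay regulators (red) and of the genes tested in 6 lists of decay genes and 1 list of known targets (blue). Each point is a gene, the black line is the median of its list and dashed lines mark 2-fold. The regulators span -0.30 to 0.17, and the medians of the exosome and nonsense-mediated decay lists lie at -0.13 and -0.14.

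Transcripts known as targets of these proteins were followed next. Of 19 targets, 17 had enough reads, and 2 passed 2-fold, both cytokines with few reads and both higher in the TSA library. Over all genes tested 14.7% passed 2-fold and 11.5% did so upward, so a count of 2 of 17 is near the background. Il10 had 12 and 51 reads, a ratio of 3.96 (2.21 to 8.67), and Il4 had 1 and 14 reads, a ratio of 7.42 on the scale that adds 1 to each value, with an interval of 2.11 to 586. The median over the 17 was -0.04 on the log2 scale, with 8 higher and 9 lower, and it was 0.030 with 9 higher after scaling to total reads. Tnf, the classical ZFP36 target with 8 heptamers in its UTR, had 1125 and 1503 reads, a ratio of 1.32 (1.22 to 1.43). Il2, which has 3 heptamers, had 198 and 160 reads, a ratio of 0.801 (0.646 to 0.991). Ifng, with 4 heptamers, had 139 and 163 reads, and its interval of 0.920 to 1.47 included no change. Il17a, with 3 heptamers, had 29 and 57 reads, a ratio of 1.91 (1.22 to 3.16). Of the other targets tested, Il10 and Notch1 held 4 heptamers, Il4 and Rel held 2, and Cd69 and Irf4 held 1. The rest held none. The 3′ ends of Il2, Notch1 and Csf2 are overlapped by genes on the other strand, so reads of the 2 strands may be mixed there.

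The other targets did not share a direction. The targets were kept as a single list and were not assigned to single regulators. Irf4, a transcription factor of activated T cells, had the highest ratio of the targets with over 1000 reads, 1.59 from 6675 reads with DMSO and 10749 with TSA, with an interval of 1.55 to 1.64. Nfkbid, an atypical IκB, had a ratio of 1.11 (1.04 to 1.20), and Nfkbiz had one of 1.01 (0.861 to 1.18). Icos was lower at 0.887 (0.832 to 0.945), Ctla4 at 0.879 (0.804 to 0.961) and Il2ra at 0.840 (0.815 to 0.867). Cd69 at 0.905 (0.826 to 0.992), Myc at 0.883 (0.815 to 0.956) and Notch1 at 0.878 (0.810 to 0.952) were lower by similar amounts. After scaling to total reads the intervals of Il2, Ctla4, Cd69 and Myc included no change, with upper bounds of 1.04, 1.009, 1.041 and 1.004, and that of Notch1 reached 0.9994. Those of Icos and Il2ra stayed below 1. Rel at 0.898 (0.766 to 1.05) and Tnfrsf4 at 0.973 (0.942 to 1.004) had intervals that included no change. Il6, with 9 and 6 reads, and Csf2, with 2 and 0 reads, were too rare to test.

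To see whether transcripts with the ZFP36 heptamer differed as a class, the 11071 genes tested that had an annotated 3′ UTR were grouped by the number of heptamers. The median log2 fold change was 0.0080 for 7724 genes with none, -0.0030 for 2162 genes with 1, 0.038 for 739 genes with 2 and 0.038 for 446 genes with 3 or more. The middle 50% of genes without a heptamer spanned -0.26 to 0.37, and that of genes with 3 or more spanned -0.23 to 0.37. The shares past 2-fold were 13.7%, 13.2%, 14.2% and 15.7%. Genes with more heptamers had longer UTRs, with a median of 836 bases for none and 3292 bases for 3 or more. Among the genes with the longest UTRs (above 1811 bases), the medians were 0.020 for 1739 genes with none and 0.052 for 359 genes with 3 or more. Among UTRs of middle length they were 0.0090 for 2663 genes with none and 0.0040 for 73 genes with 3 or more, and among the shortest (up to 664 bases) -0.0040 for 3322 genes and -0.0080 for 14 genes. The difference between genes with 3 or more heptamers and genes with none, 0.030 here, was 0.072 without the filter on reads and 0.116 with heptamers counted in the last 500 bases only, where the median of the former was 0.124.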

How the data were processed

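RNA from 1 control and 1 TSA-treated culture was sequenced by the authors from QuantSeq 3′ libraries as single-end 75-nt reads and analysed with ExDEGA. The submitters' processing notes name Bowtie2, bedtools and mm10. The normalization, the annotation and the use of strand are not given in the sources used here. Each gene has 1 deposited value in each library, on a log2 scale, which the values show to be log2 of a normalized count plus 1. Taking them back from that scale gave steps of 1.005 (control) and 0.995 (TSA) normalized counts per read, estimated between 20 and 300 normalized counts. Of rows with 1 to 300 reads, 99.9% and 99.8% lay within 0.1 of a whole read. Above that range the 3 deposited decimals leave an error of up to 1.35 reads for the 10 genes.

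Log2 fold changes are TSA minus control, and ratios are 2 to that power. Genes with at least 10 reads in 1 library were tested, with the study's 2-fold threshold, and no p-value was computed. The 95% intervals are exact, on reads as counted, and cover counting error only, since PCR copies cannot be told apart. The detection floor of 3 reads did not enter them. Shares within families are shares of reads, and their ratios carry conditional exact intervals. UTRs came from GENCODE M21 (GRCm38, the same build as mm10), for 91.0% of the genes tested.

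The 10 genes and all lists were chosen with earlier results of these data known. Named are the 10 genes, their nearest paralogs (added after values were seen), in each list up to 4 genes past 2-fold and the highest and lowest gene whose normalized counts average at least 50, and every target with enough reads. The recovery of reads, the calls, the intervals and the scalings were tested on simulated data. The shares within families were chosen after values were seen. Alternatives covered the scaling (trimmed mean of M-values, median of ratios, total reads, upper quartile), the pseudocount (0.1 and 5), the filter, the threshold and the motif window. Computations ran in Python (3.11.15) with pandas (2.3.3), scipy (1.17.1), numpy (2.4.6) and matplotlib (3.10.9).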

Additional observations from a re-analysis of the deposited data

How the results depend on the processing

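No paired analysis was possible because each condition had a single library, so no library could be left out either. None of the 10 regulators passed 2-fold under any scaling, pseudocount, filter or threshold tried, 1.5-fold included. Their median log2 fold change, -0.057 as deposited, was 0.013 with total-read scaling, which raises all genes by 0.070. Without a filter, 4017 genes, 7 other decay genes and 3 targets passed 2-fold (70.1% of all higher, against 78.5%). With at least 10 reads in both libraries the numbers were 747, 2 and 1, and where normalized counts averaged at least 50 they were 419, 1 and 0. At 1.5-fold they were 3293, 13 and 4, and with the whole 95% interval beyond 2-fold 703 genes, 1 other decay gene (Igf2bp2) and 2 targets (Il4 and Il10) passed. At least 10 reads in both libraries left 10909 genes tested, and a mean of at least 50 left 9399, against 12164. Both filters leave out genes with few reads, which pass 2-fold more often. With total-read scaling 82.2% of the 1830 genes past 2-fold were higher, and 3 targets passed. The difference in median between genes with 3 or more heptamers and genes with none was 0.030, and it lay between 0.023 and 0.116 under the alternatives, the highest with heptamers counted in the last 500 bases only and 0.028 with the nonamer TATTTATTT. Depth limits the size of the differences of Il4, Il10, Igf2bp2 and Zc3h12b, whose intervals are wide.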

Other observations

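Of the decay genes that the naming rule did not cover, 3 that were lower in the TSA library are given here, with 3 of their neighbours, and all were chosen after their values were seen. Upf3b, a partner of UPF2 at exon junctions, was counted 1229 times with DMSO and 734 times with TSA, a ratio of 0.591 (95% interval 0.539 to 0.649). Exosc9, a ring subunit of the exosome, had 810 and 534 reads, a ratio of 0.653 (0.584 to 0.729), and Skiv2l, the helicase of the SKI complex, had 294 and 195 reads, a ratio of 0.658 (0.545 to 0.790). All 3 intervals lay below 1. Their neighbours Smg6, at a ratio of 0.952 (0.832 to 1.09), Exosc5, at 0.9986 (0.890 to 1.12), and Wdr61, at 1.04 (0.952 to 1.14), had intervals that included no change. With 1 library per condition, these differences have no replicate check.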
